A study of Mus musculus with 12 samples.

Results

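All cells isolated as Lgr5-high from mouse small intestine were compared with all cells isolated as Lgr5-low, over 3 levels of Mex3a. The members were chosen by the population label alone, and they are all 12 of the 12 arrays in the series: 6 Lgr5-high and 6 Lgr5-low. Each side holds a Mex3a High, a Mex3a Low and a Mex3a Neg population, called gates here, each measured once in biological replicates MR793 and MR820 (n = 2 arrays per population, which limits the precision). All groups are untreated primary cells, with RNA from 2000 cells per sample amplified over 22 cycles. The genotype, strain and age of the mice, the marker or reporter used for isolation, and whether a replicate is 1 animal or a pool are in none of the sources used here. The p-values therefore measure the spread between these samples. The comparison asks which genes separate the Lgr5 levels whatever the Mex3a level, and which do so in 1 Mex3a gate.

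Lgr5 encodes a receptor for R-spondins, secreted proteins that strengthen Wnt signalling, and it marks the stem cells at the base of the intestinal crypt. Wnt ligands bind Frizzled receptors and stabilise beta-catenin, which acts with TCF/LEF factors to switch on target genes, among them inhibitors of the pathway itself. Daughter cells leave the crypt base and become absorptive enterocytes or secretory cells: mucus-making goblet cells, hormone-making enteroendocrine cells, chemosensory tuft cells and, at the crypt base itself, antimicrobial Paneth cells. Mex3a encodes an RNA-binding protein.

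Levels are RMA values on a log2 scale, and a change is the Lgr5-high minus the Lgr5-low level, so 1 log2 unit is a doubling. One array stood apart, that of Mex3a-high Lgr5-high cells in MR793, with correlations of 0.896 to 0.916 with the other arrays against 0.971 to 0.996 among the other 11, so results are also given without it. Its values were also less spread, with an SD of 1.72 against 1.93 to 1.97 on the other arrays. The array strip of the labels runs almost parallel to the Lgr5 gate. Strip 1 holds only Lgr5-high and strip 3 only Lgr5-low arrays, while strip 2 holds 4 arrays of MR820 and 1 matched pair, that of the Mex3a-high gate. That pair gives the within-strip values below, each a difference of 2 arrays. Epcam, an epithelial adhesion gene, lay between 11.97 and 12.43 on the 12 arrays, lowest on the array that stood apart. The mean level of 12 epithelial identity genes was 10.34 on that array and at most 11.21 on any. Lgr5 levels matched the Lgr5 label, with no overlap. They lay between 9.0 and 10.21 (median 10.06) on the Lgr5-high and between 6.37 and 8.05 (median 7.32) on the Lgr5-low arrays. Mex3a levels overlapped between the Lgr5 gates (5.63 to 6.35 against 5.44 to 5.71, a change of 0.30 ± 0.11, limma adjusted p = 0.322). Between the Mex3a gates they differed little. In the order High, Low and Neg the means were 6.09, 5.71 and 5.81 in Lgr5-high cells. In Lgr5-low cells they were 5.64, 5.56 and 5.52. The 6.09 averages 6.35 on the array that stood apart and 5.84 on its partner. Array medians over all probe sets were 5.83 to 6.04. The Mex3a level was not tested between Mex3a gates.

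Lgr5-high cells had higher levels of Wnt target genes (8 of 22 measured, 0 lower) and crypt base stem cell genes (8 of 25, 0 lower). Both counts include Lgr5, the gene of the label. Lgr5-high cells had lower levels of goblet (5 of 18), enteroendocrine (14 of 27) and tuft cell genes (11 of 16), with 0 higher. Averaged over the gates, 236 of 17097 genes passed the test (called: limma, Benjamini-Hochberg adjusted p under 0.05), or 1.38%. Of these 43 were higher (0.252%) and 193 lower (1.13%) in Lgr5-high cells. Without the array that stood apart 310 were higher (1.81%) and 565 lower (3.30%). The total was 9323 without the other Mex3a-high Lgr5-high array, which leaves the one that stood apart alone in its population. It was 114, 110, 106 and 111 without the Mex3a-low or Mex3a-negative Lgr5-high array of MR793, or those of MR820. It was 113, 111 and 122 without the Mex3a-high, -low or -negative Lgr5-low array of MR793 and 152 without the Mex3a-high Lgr5-low array of MR820. The 6 Lgr5-high arrays did not overlap the 6 Lgr5-low arrays in 520 genes (3.04%), called or not.

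Within single gates, each with 2 arrays against 2, the counts were unequal. The Mex3a-high gate gave 234 called genes (1.37%), 9 higher and 225 lower. It gave 388 without the array that stood apart, 10870 without its partner, and 96 and 134 without the Mex3a-high Lgr5-low array of MR793 or of MR820. The Mex3a-low gate gave 8 (0.0468%), of which 1, Esr1 of the estrogen receptor alpha, was higher. That count moved with any 1 of the 12 arrays left out, from 0 without either Mex3a-low Lgr5-high array (314 and 265 genes at an unadjusted p under 0.05 by limma) to 28 without either Mex3a-high Lgr5-high array, and was 20 on leaving out the array of Mex3a-low Lgr5-low cells in MR820. In the Mex3a-negative gate limma called 0 (0.00%), with 371 genes at an unadjusted p under 0.05, and 10 without the array that stood apart or without its partner, and 3 without the Mex3a-negative Lgr5-low array of MR820. The change itself differed between the gates in 52 genes by limma's F test (0.304%), and in 51 of these the largest change was a fall in the Mex3a-high gate. That F test called 105 without the array that stood apart and 7546 without its partner. It called 14, 2, 14 and 0 (311 at an unadjusted p under 0.05) without the Mex3a-low or Mex3a-negative Lgr5-high array of MR793 or those of MR820, and 13, 5, 20 and 14 without the Mex3a-high or Mex3a-negative Lgr5-low array of MR793 or those of MR820.

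Genes were then divided by how the 3 gates compared. A gene moved alike when it was called over all gates, had 1 sign in all 6 matched pairs (3 gates in 2 replicates) and had a smallest gate change of at least 0.5 times its largest. By this rule 63 of the 236 called genes moved alike, 34 higher and 29 lower in Lgr5-high cells, and the F test called 0 of them (0 also at an unadjusted p under 0.05). Of all genes tested, 12.9% had 1 sign in the 6 pairs. The 2 Lgr5 groups did not overlap in 55 of the 63 genes. A gene was driven by 1 gate when it was called in any of these tests and its largest gate change was at least 1 and at least 2 times that of each other gate: 169 genes, of which 111 were called over all gates and 46 by the F test. There were 226 such genes without the array that stood apart, 3485 without its partner, 82 without the Mex3a-high Lgr5-low array of MR793 and 109 on leaving out that of Mex3a-low Lgr5-low cells in MR820. In the plot of the Mex3a-high against the Mex3a-negative gate, the first lie along the line of equal change and the second along its vertical axis.

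**Figure D1:**
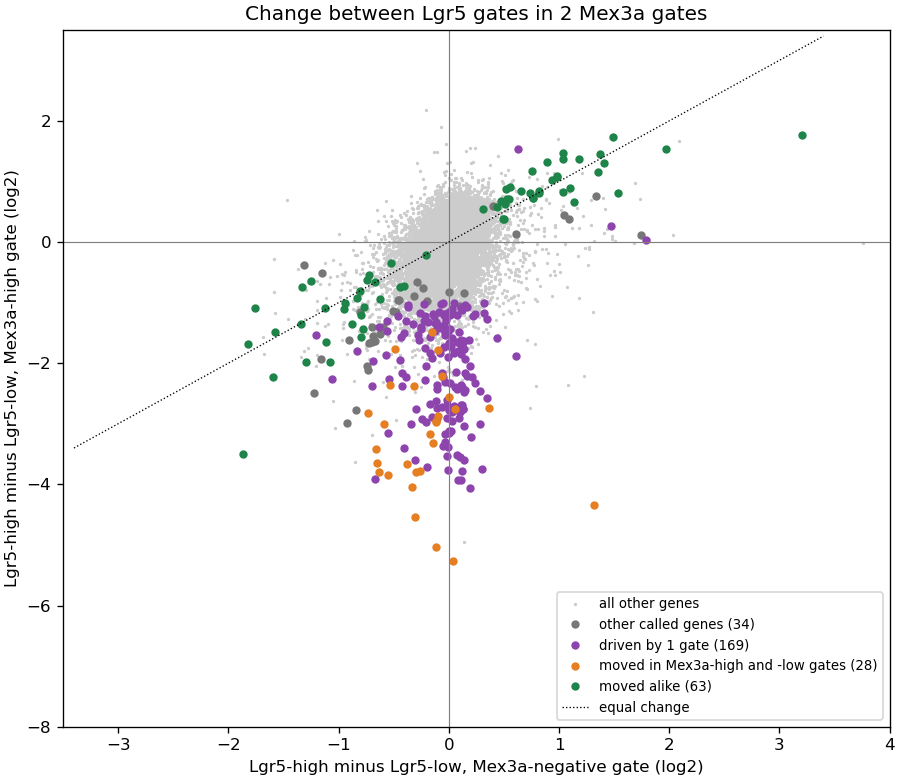
Change between the Lgr5 gates (Lgr5-high minus Lgr5-low, log2) in the Mex3a-negative gate (x axis) against the Mex3a-high gate (y axis), 1 point per gene for 17097 genes. The 63 genes that moved alike lie near the dotted line of equal change, and most of the 169 genes driven by 1 gate lie below 0 on the y axis and near 0 on the x axis; the classes were made from these values.

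Among the genes higher in Lgr5-high cells in all gates were parts of the Wnt pathway that face the ligand. Rnf43 encodes a membrane E3 ligase that removes Frizzled receptors and is itself held back by R-spondin and LGR receptors. Its level lay between 8.31 and 8.63 (median 8.55) on the Lgr5-high and between 6.75 and 7.69 (median 7.43) on the Lgr5-low arrays. The groups did not overlap, and the rise was 1.20 ± 0.16 (log2 ± SE, limma adjusted p = 0.00601), with 1.47, 1.09 and 1.04 in the Mex3a-high, -low and -negative gates. Within strip 2 it was 1.84. The related ligase gene Znrf3 was at 0.36 ± 0.12 (adjusted p = 0.257) and called once the outlying array was left out (0.42, adjusted p = 0.0298). Of the Frizzled receptor genes, Fzd7 rose from 6.44 to 6.74 on Lgr5-low to 7.12 to 7.35 on Lgr5-high arrays, by 0.61 ± 0.11 (adjusted p = 0.0265). Fzd2 did not overlap between the groups either, but its change of 0.94 ± 0.20 had an adjusted p of 0.0646 (0.0366 without the array that stood apart; 0.0118 when the replicate was a block). The list of R-spondin and Wnt receptors holds 20 measured genes, of which 3 (Lgr5, Rnf43 and Fzd7) were higher and 0 lower. Without the array that stood apart 5 were higher. The median change was 0.18 against 0.04 over all genes. Lgr5 is the gene of the label, so its rise here and in the Wnt target and stem cell lists follows from the grouping.

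Of 22 measured Wnt target and feedback genes 8 were higher and 0 lower (median 0.42), 7 of them alike, and 11 were higher without the array that stood apart. Axin2, whose product limits beta-catenin and which Wnt induces, was at 10.36 to 10.68 (median 10.45) on Lgr5-high and 9.17 to 9.64 (median 9.52) on Lgr5-low arrays. Its groups stood apart by more than the spread within either, with gate changes of 1.08, 0.90 and 0.99 and a rise of 0.99 ± 0.11 (adjusted p = 0.00266). Sp5, a zinc finger factor gene that Wnt induces, was at 7.68 to 8.04 (median 7.75) against 6.67 to 7.06 (median 6.87). Its gate changes were 1.02, 0.90 and 0.94, and its rise 0.95 ± 0.11 (adjusted p = 0.00351). Tnfrsf19, also known as Troy, encodes a receptor of the TNF receptor family. It rose by 1.38 ± 0.22 (adjusted p = 0.0147), from 6.70 to 7.55 up to 8.23 to 8.82, and by 1.30, 1.42 and 1.41 in the gates. Myc, the growth regulator gene, rose by 0.54 ± 0.10 (adjusted p = 0.0434). The one called outside the rule was Ephb3, which encodes a receptor that keeps cells at the crypt base: its rise of 0.79 ± 0.13 (adjusted p = 0.0247) was 0.45, 0.87 and 1.04 in the gates, outside the 0.5 limit.

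Of 25 measured crypt base stem cell genes 8 were higher and 0 lower, with a median of 0.63 and 24 positive. Ascl2, the transcription factor gene of these cells, lay between 8.65 and 9.19 (median 8.94) on Lgr5-high and between 7.47 and 8.40 (median 8.08) on Lgr5-low arrays, a rise of 0.95 ± 0.19 (adjusted p = 0.0459). Its 3 probe sets differed in size, with mean changes from 0.30 to 1.27. Smoc2, a matricellular protein gene, lay between 10.84 and 11.38 (median 10.96) against 9.99 to 10.64 (median 10.30), a rise of 0.69 ± 0.13 (adjusted p = 0.0340), with no overlap in either gene. Gkn3, a gastrokine gene, had the largest rise in the stem cell list after Lgr5: 1.57 ± 0.18 (adjusted p = 0.00314), from 9.06 to 9.76 up to 10.65 to 11.49, with 1.73, 1.5 and 1.49 in the gates. Olfm4, a secreted glycoprotein gene often used to mark these cells, was at 12.52 to 13.08 on Lgr5-high and 12.50 to 12.92 on Lgr5-low arrays. The groups overlapped, and its change of 0.14 ± 0.11 had an adjusted p of 0.546. Without the array that stood apart 16 stem cell genes were higher, among them the BMP co-receptor gene Rgmb (1.36, adjusted p = 0.00353, against 1.07 ± 0.29 and 0.148 with all arrays) and the kinase gene Cdk6 (0.76, adjusted p = 0.0100, against 0.63 and 0.120). With all arrays and the replicate as a block, both were called (adjusted p = 0.0462 for Rgmb and 0.0390 for Cdk6). Msi1, of the RNA-binding protein Musashi, stayed outside in both (0.97 ± 0.22, adjusted p = 0.0787 and 0.0509). The stem cell and Wnt lists share most of their called members, Lgr5, Axin2 and Ascl2 among them.

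**Figure D2:**
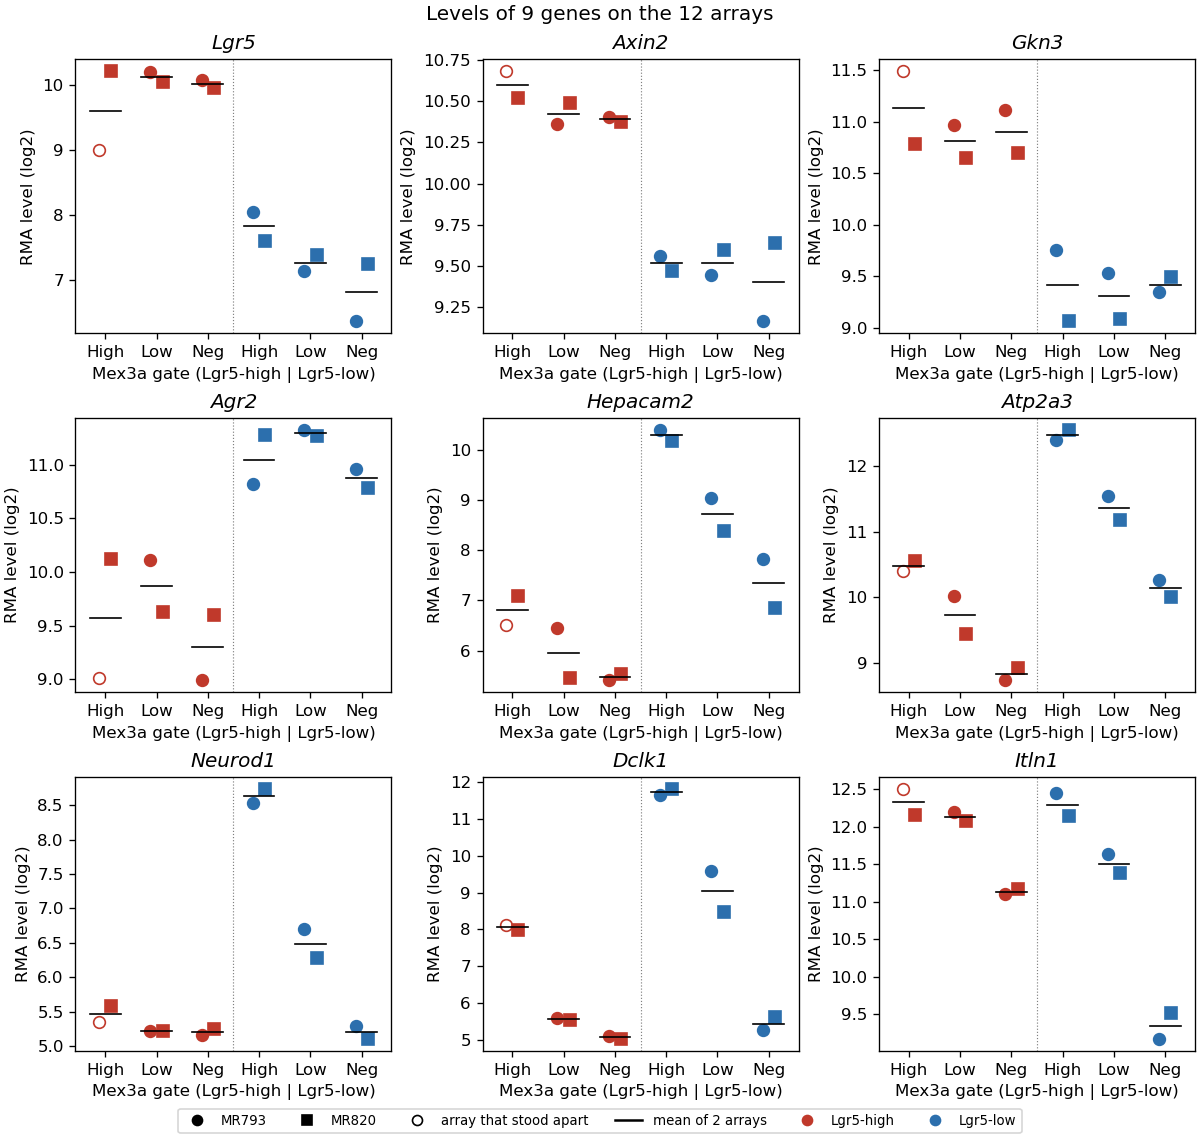
RMA log2 level of 9 genes on each of the 12 arrays, by Mex3a gate (High, Low, Neg), with Lgr5-high populations left and Lgr5-low right of the dotted line; circles are MR793, squares MR820, the open circle the array that stood apart, and bars the mean of 2 arrays. Lgr5, Axin2 and Gkn3 step down and Agr2 steps up across the line in every gate, Hepacam2 and Atp2a3 do so on top of an order among the Mex3a gates, Neurod1 is highest in Mex3a-high and next in Mex3a-low Lgr5-low cells, Dclk1 likewise, and Itln1 is low in Mex3a-negative Lgr5-low cells.

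Since these genes moved together, the promoters that RefSeq gives for them (GRCm38.p6) were searched for the TCF/LEF core motif CTTTGAT and its reverse ATCAAAG in the 250 bases before the gene start, on both strands. It was found in 3 of the 23 genes higher in all gates that have an entry, or 13.0%, in 1 of 22 lower in all gates (4.55%), in 4 of 127 genes lower in the Mex3a-high gate (3.15%) and in 438 of 13605 genes tested (3.22%). The 3 are shown 5′ to 3′ on the strand of the gene, with the match in capitals. They are Sp5 (chr2:70474673-70474922, plus strand, match starting 104 bases before the start), Tnfrsf19 (chr14:61037988-61038237, minus strand, 202 bases, in 1 of its 2 listed promoters) and Slc1a2 (chr2:102706188-102706437, plus strand, 207 bases). No other motif was searched. A match is a description of these letters, and factor binding was not measured here.
Sp5: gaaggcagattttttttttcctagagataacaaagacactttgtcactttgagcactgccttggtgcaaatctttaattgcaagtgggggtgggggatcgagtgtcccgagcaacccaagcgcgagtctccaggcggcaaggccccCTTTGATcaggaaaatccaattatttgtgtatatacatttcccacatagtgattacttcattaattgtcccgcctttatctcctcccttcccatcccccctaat
Tnfrsf19: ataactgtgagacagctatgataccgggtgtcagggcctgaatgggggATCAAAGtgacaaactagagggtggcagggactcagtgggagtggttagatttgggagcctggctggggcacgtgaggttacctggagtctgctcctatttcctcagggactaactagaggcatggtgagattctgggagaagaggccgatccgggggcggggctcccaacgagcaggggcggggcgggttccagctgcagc
Slc1a2: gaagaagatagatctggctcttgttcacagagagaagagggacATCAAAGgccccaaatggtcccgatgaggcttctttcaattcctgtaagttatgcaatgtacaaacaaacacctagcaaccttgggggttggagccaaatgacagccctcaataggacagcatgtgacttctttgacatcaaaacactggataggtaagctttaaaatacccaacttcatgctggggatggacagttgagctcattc

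Genes outside the Wnt and stem cell lists made up most of the set that was higher in all gates: 10 of its 34 genes are in any list. Membrane transporter genes had some of its largest rises. Slc1a2, a glutamate transporter gene, was at 8.65 to 9.35 (median 9.04) on Lgr5-high and 6.30 to 7.89 (median 7.35) on Lgr5-low arrays, a rise of 1.79 ± 0.30 (adjusted p = 0.0247). Slc14a1, a urea transporter gene, also had a clear gap, 7.64 to 8.17 against 6.37 to 6.72. Its rise of 1.43 ± 0.12 (adjusted p = 0.000843) was 1.46, 1.46 and 1.37 in the gates and 1.80 within strip 2. Slc38a4, an amino acid transporter gene, rose by 1.27 ± 0.18 (adjusted p = 0.00753), and by 1.59 in MR793 against 0.95 in MR820. Ccdc3, which encodes a secreted protein, rose by 1.27 ± 0.16 and Ptpro, a receptor tyrosine phosphatase gene, by 1.17 ± 0.15 (adjusted p = 0.00446 and 0.00537). Signalling genes were also in this set, named here after their values were seen. Gas6, a ligand gene of the TAM receptors, rose by 0.95 ± 0.11, the growth factor gene Fgf1 by 0.78 ± 0.12, the receptor gene Fgfr4 by 0.92 ± 0.14, the serotonin receptor gene Htr4 by 0.79 ± 0.15 and Utrn, of the cytoskeletal protein utrophin, by 0.95 ± 0.12 (adjusted p = 0.00351, 0.0142, 0.0135, 0.0408 and 0.00509). None of these 5 genes overlapped between the Lgr5 groups. Beside them, Esr1 rose by 1.31 ± 0.09 (adjusted p = 0.000663) without meeting the rule, since its gate changes were 0.76, 1.84 and 1.33. Sfrp5, a secreted Wnt inhibitor gene, also rose outside the rule (0.76 ± 0.15, adjusted p = 0.0469; 0.37, 0.82 and 1.09). Over the 34 genes, Lgr5 among them, the rise ran from 0.38 to 2.61 with a median of 0.93. Probe sets differed in size for Slc38a4, Gas6 and Htr4, with mean changes from 0.19 to 1.27, from 0.12 to 0.95 and from 0.12 to 0.79.

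**Figure D3:**
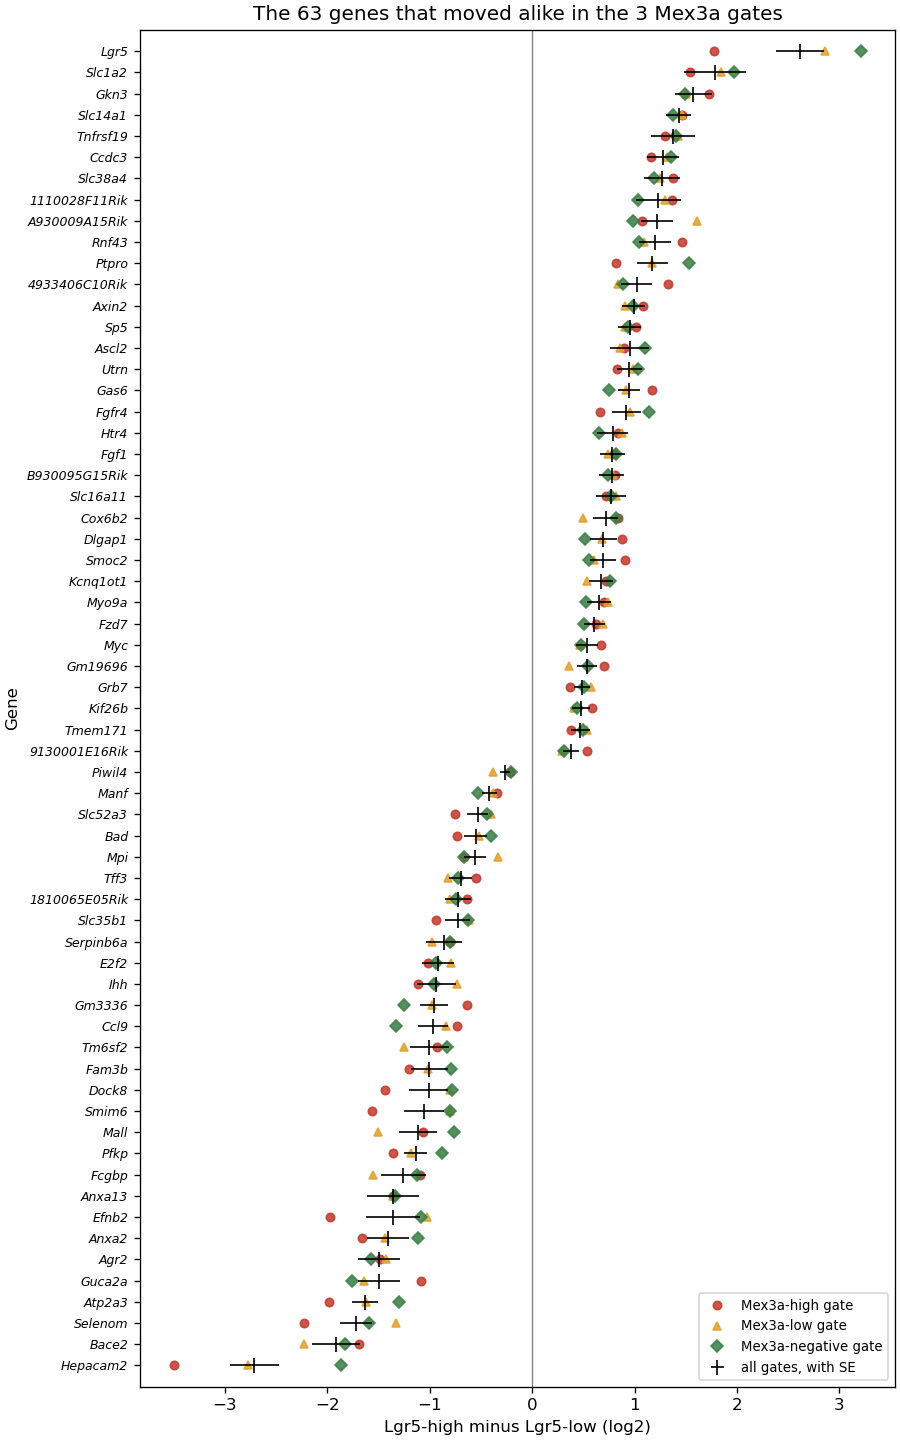
Change between the Lgr5 gates (log2) in each Mex3a gate for the 63 genes that moved alike, ordered by their change over all gates (tick with SE). For each gene the 3 gates lie on 1 side of 0, which the rule requires, from Lgr5 at 2.61 to Hepacam2 at -2.71.

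Of the genes that fell in all 3 gates, 5 belong to the goblet cell list. Agr2, whose product folds mucins, was at 9.0 to 10.12 (median 9.61) on Lgr5-high and 10.79 to 11.32 (median 11.11) on Lgr5-low arrays. It fell without overlap, with a change of -1.49 ± 0.20 (adjusted p = 0.00752), and -1.48, -1.42 and -1.58 in the gates. Fcgbp, a mucus component gene, was at 10.65 to 11.61 (median 11.27) against 11.76 to 12.90 (median 12.51), a change of -1.26 ± 0.22 (adjusted p = 0.0265). Guca2a, of the peptide guanylin that regulates fluid secretion, was at 8.95 to 10.02 (median 9.59) against 10.54 to 11.50 (median 11.06), a change of -1.49 ± 0.20 (adjusted p = 0.00734). Tff3, a trefoil peptide gene, was at 11.98 to 12.43 against 12.65 to 13.06, and fell by 0.70 ± 0.11 (adjusted p = 0.0139). The chemokine gene Ccl9 fell by 0.97 ± 0.15 (adjusted p = 0.0134), with overlap of the groups. These 5 were the called members among 18 measured goblet cell genes (median -0.66, 0 higher), and 11 were lower without the array that stood apart. In bulk samples fewer cells of a type and less of its RNA per cell cannot be told apart.

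Among transcription factor genes of the secretory lineage, Atoh1 and Spdef did not pass the test with all arrays. Atoh1, required for all secretory cells, lay between 6.37 and 8.20 on Lgr5-high and between 7.96 and 8.94 on Lgr5-low arrays, with overlap, a change of -1.37 ± 0.31 (adjusted p = 0.0740; -1.07 and 0.0139 without the array that stood apart). Spdef, which drives goblet cell maturation, was at -0.60 ± 0.13 (adjusted p = 0.0655; 0.00761 without that array; 0.0384 when the replicate was a block). The secretory progenitor list had 0 of 15 genes called by limma (8 at an unadjusted p under 0.05; median -0.30) and 4 lower without that array. Manf and Slc35b1, both of the endoplasmic reticulum, where secreted proteins are made, fell in all gates (-0.42 ± 0.08 and -0.73 ± 0.12; adjusted p = 0.0336 and 0.0247).

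The largest falls in all gates were in genes of other functions, and some carried an order among the Mex3a gates as well. Hepacam2, of an immunoglobulin family adhesion protein, had the largest: its mean fell from 10.29 to 6.80 in the Mex3a-high, from 8.72 to 5.95 in the Mex3a-low and from 7.34 to 5.48 in the Mex3a-negative gate. Pooled over gates the groups overlapped (5.42 to 7.10 against 6.86 to 10.40), while each of the 6 matched pairs fell, as the rule requires, and the change was -2.71 ± 0.24 (adjusted p = 0.000843). Atp2a3, of the calcium pump SERCA3, showed the same arrangement: 12.46 to 10.48, 11.36 to 9.74 and 10.14 to 8.84, a change of -1.63 ± 0.13 (adjusted p = 0.000663). Selenom, a selenoprotein gene of the endoplasmic reticulum, fell by 1.72 ± 0.16 (adjusted p = 0.000942), also with overlap. Bace2, an aspartyl protease gene, did not overlap (6.75 to 7.79 against 8.40 to 9.73), and fell by 1.91 ± 0.23 (adjusted p = 0.00446); its 3 probe sets disagree, with mean changes from -1.91 to 0.05. The annexin genes Anxa2 and Anxa13 fell, at -1.40 ± 0.20 and -1.35 ± 0.26, as did the glycolytic enzyme gene Pfkp at -1.14 ± 0.11 (adjusted p = 0.0100, 0.0373 and 0.00153), all without overlap.

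Signalling genes fell in all gates too. Efnb2, whose product ephrin-B2 is a ligand of Eph receptors such as that of Ephb3, was at 7.40 to 7.70 (median 7.55) on Lgr5-high and 7.93 to 9.76 (median 9.12) on Lgr5-low arrays. It fell by 1.36 ± 0.26 (adjusted p = 0.0425), opposite to Ephb3, and these were the called members among 17 measured Eph and ephrin genes. Ihh, the Hedgehog ligand gene of the gut epithelium, was lower at -0.93 ± 0.19, and E2f2, a cell cycle factor gene, at -0.91 ± 0.16 (adjusted p = 0.0485 and 0.0249; both named after their values were seen). Mall, Dock8, Fam3b and Tm6sf2, of a membrane protein, an exchange factor, a cytokine-like protein and a protein of lipid export, were lower, at -1.11, -1.01, -1.0 and -1.0 (adjusted p = 0.0199, 0.0372, 0.0314 and 0.0347). Over the 29 genes the change ran from -0.27 to -2.71 with a median of -1.0.

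The 63 genes kept their calls without the array that stood apart and lost them with strip as a block. Without that array all 63 were still called, 56 still met the rule, and 317 genes met it in all (172 higher, 145 lower). The rule was met by 351 genes without its partner, by 26, 25, 23 and 23 without the other Lgr5-high arrays, by 24, 19, 24, 21, 34 and 136 without the Mex3a-high, -low and -negative Lgr5-low arrays of MR793 and then of MR820. With the replicate as a block 63 of the 63 were called and 118 genes met the rule. The strip as a block gave 63 of 63 the same sign and a median of 0.898 times the change (0.541 to 1.48), with a median SE of 0.256 against 0.148. The sign was also kept in 173 of the 173 called genes outside the 63, so it is not particular to them. Only through the 4 arrays of strip 2, which hold the pair whose sign the rule fixed, can this block separate strip from Lgr5 gate. In that fit limma called 0 genes at all (456 at an unadjusted p under 0.05, 52 of the 63 among them). For 5 of the 6 matched pairs strip and Lgr5 gate cannot be told apart. Within strip 2 the Mex3a-high pair of MR820 had a median of 0.89 over the 34 higher and -1.0 over the 29 lower genes, with the sign fixed by the rule. Of the 63, 20 were called whichever of the 12 arrays was left out. They include Lgr5, the gene of the label itself, and Axin2, Rnf43, Sp5, Gkn3, Slc14a1, Slc38a4, Ccdc3, Ptpro, Gas6 and Utrn on the higher side. On the lower side are Agr2, Guca2a, Hepacam2, Bace2, Selenom, Atp2a3 and Pfkp. Other calls were less stable over the 12 arrays left out in turn. Smoc2 and Myc kept theirs for 3 of these, Ascl2 and Fzd7 for 4, Slc1a2 and Fcgbp for 5. Tnfrsf19 kept its call for 6, Fgfr4 for 7, Tff3 and Ccl9 for 8 and Anxa2 for 9. Manf kept its call for 2 of them, Efnb2 and Tm6sf2 for 4, and Fgf1 and Mall for 5. Htr4, Ihh, E2f2, Anxa13, Dock8, Fam3b and Slc35b1 kept theirs for 3. In a fit of the Mex3a-low and Mex3a-negative gates alone, 35 of the 63 were called among 123 genes.

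**Figure D4:**
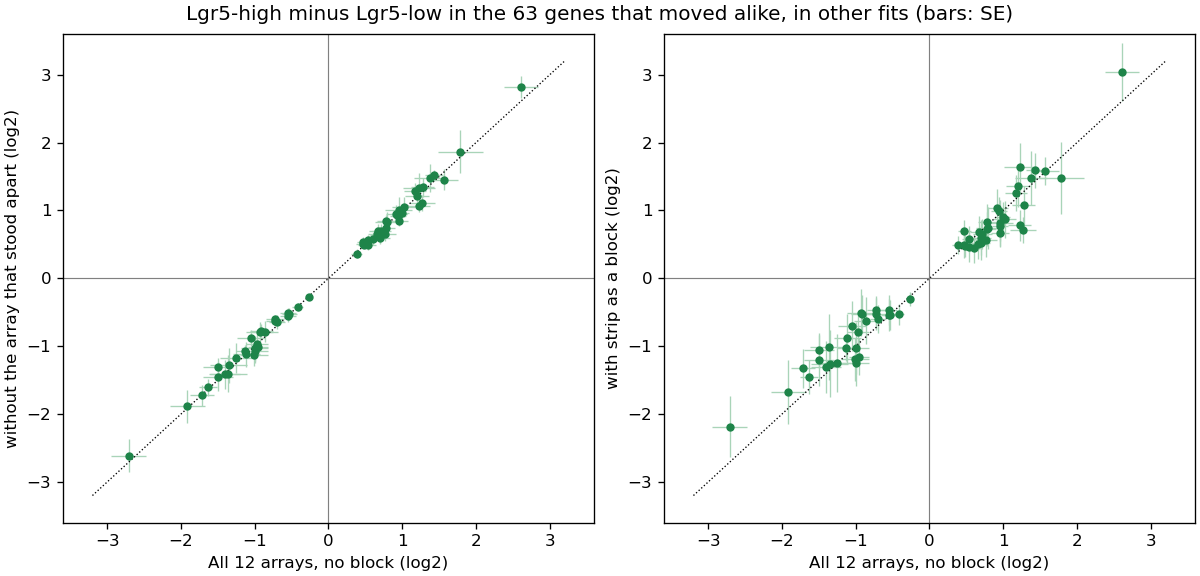
Change over all gates (log2, with SE) of the 63 genes that moved alike, in the fit of all 12 arrays (x axes) against the fit without the array that stood apart (left) and with strip as a block (right); the dotted line marks equal values. Points keep their side of 0 in both, and the SE is larger with strip as a block. With that block the 173 called genes outside the 63 kept their side too.

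Of the 169 genes driven by 1 gate, 165 were lower in Lgr5-high cells of the Mex3a-high gate, and all 165 had their highest mean in Mex3a-high Lgr5-low cells. Their median level was 8.58 there, 6.63 in Mex3a-low and 5.83 in Mex3a-negative Lgr5-low cells, and 6.20, 5.75 and 5.73 in the Lgr5-high cells of the same gates. In these medians the Lgr5-low populations stood in the order of their Mex3a gates. The genes were picked by a fall in the Mex3a-high gate. The top place of Mex3a-high Lgr5-low cells, in the count of 165 and in this order, therefore follows largely from the rule. The median change of these genes was -1.94 in the Mex3a-high, -0.54 in the Mex3a-low and -0.01 in the Mex3a-negative gate, with the Mex3a-low change between the other gates' in 153. In the Mex3a-negative gate their median levels of 5.83 and 5.73 were no higher than the array medians (5.83 to 6.04). Little room was therefore left there for a fall to show, and the same limit applies below to genes at such levels. Without the array that stood apart the median in the Mex3a-high gate was -2.04, and within strip 2 it was -1.94 with 165 of 165 lower, in a pair that is itself part of the change the rule used. Of the 165, 146 met the rule without that array, when 217 genes did so in all.

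The 165 genes hold 7 of the enteroendocrine, 7 of the tuft cell and 22 of any list. Neurod1, a transcription factor gene of hormone-making cells, was at 8.54 and 8.73 on the Mex3a-high Lgr5-low arrays of MR793 and MR820 and at 6.69 and 6.28 on the Mex3a-low ones. On the Mex3a-negative Lgr5-low and all Lgr5-high arrays it lay between 5.11 and 5.59. Its change was -3.16 ± 0.18 in the Mex3a-high, -1.26 in the Mex3a-low and 0.01 in the Mex3a-negative gate, and it differed between gates (F test, limma adjusted p = 0.00712). Isl1, another such factor gene, was at -3.55 ± 0.32, -1.34 and 0.10 (F test adjusted p = 0.0267). In Cdkn1c, of the cell cycle inhibitor p57, the values were -3.53 ± 0.27, -1.46 and -0.02 (F test adjusted p = 0.0173). Other hormone and granule genes also had large negative values in the Mex3a-low gate. Gip, an incretin hormone gene, averaged 12.78 and 12.08 in Mex3a-high and Mex3a-low Lgr5-low cells against 8.44 and 6.46 in the matching Lgr5-high cells, and 6.35 against 7.67 in the Mex3a-negative gate, where its change was 1.32 ± 0.73 (adjusted p = 1.0; F test 0.0484). Cpe, of a prohormone processing enzyme, Tac1, of the substance P precursor, Tph1, of serotonin synthesis, and the granin gene Chga were lower over all gates, at -2.74, -2.58, -2.52 and -2.09 (adjusted p = 0.00463, 0.00588, 0.00271 and 0.0292), with 0.04, -0.31, -0.55 and -0.66 in the Mex3a-negative gate. The 2 probe sets of Tac1 disagree, with mean changes of -2.58 and 0.22. Of 27 measured enteroendocrine genes 14 were lower and 0 higher, with medians of -2.91, -1.26 and 0.01 in the 3 gates, and 18 were lower without the array that stood apart.

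Tuft cell genes were also highest in Mex3a-high Lgr5-low cells. Dclk1, the kinase gene that marks these cells, was at 11.64 and 11.81 in Mex3a-high, 9.59 and 8.48 in Mex3a-low and 5.27 and 5.63 in Mex3a-negative Lgr5-low cells. Among Lgr5-high cells it was at 8.12 and 8.00 in the Mex3a-high gate and between 5.04 and 5.60 in the others, with the Mex3a-high population the highest there. Its change was -3.67 ± 0.32, -3.46 and -0.38 (F test adjusted p = 0.0267). Sh2d6, an adaptor gene, the leukotriene synthesis gene Alox5ap, Avil, of the actin-binding protein advillin, the cation channel gene Trpm5 and the lectin gene Siglecf changed by -3.00, -4.04, -2.95, -2.97 and -5.03 in the Mex3a-high gate and by -0.58, -0.34, -0.12, -0.12 and -0.11 in the Mex3a-negative gate. The F test called Alox5ap (adjusted p = 0.0302) and Avil (0.0455), and not Sh2d6 (0.176), Trpm5 (0.213) or Siglecf (0.120). Pou2f3, the tuft cell factor gene, Spib, an Ets factor gene, Kctd12 and Rgs13 were driven by the Mex3a-high gate, at -2.47, -3.93, -4.07 and -3.6 there, with F test adjusted p-values of 0.176, 0.159, 0.199 and 0.0257. Of 16 measured tuft cell genes 11 were lower and 0 higher, with medians of -2.96, -1.65 and 0.05 in the gates, and 15 were lower without the array that stood apart.

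Between both classes lay 28 genes, all lower, that changed by at least 1 in the Mex3a-high and Mex3a-low gates and by at most 0.5 times the smaller of these in the Mex3a-negative gate, a class added after the data were seen. It holds 8 enteroendocrine and 6 tuft cell genes, and the F test called 6 of the 28. Fut2, a fucosyltransferase gene, changed by -3.80, -2.74 and -0.29 (F test adjusted p = 0.0240), and Vwa5b2 by -3.77, -2.60 and -0.26 (0.0324). Krt20, a keratin gene of differentiated cells, changed by -2.20, -2.71 and -0.06, and Cdkn1a, of the inhibitor p21, by -2.35, -1.69 and -0.54. Both were called over all gates (adjusted p = 0.0235 and 0.0495) and not by the F test (0.778 and 0.999).

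Besides Neurod1, the 10 genes with the smallest F test p-values are in no list. The lists were written from general knowledge and are short, so a gene outside them can still belong to a listed cell type. Lrp11, Strip2, Bmx, Nebl, Tmem229a, Tspan6, Camk2b, Fyb and Serpina1c changed by -2.40, -2.60, -2.81, -3.23, -2.90, -3.12, -2.88, -3.6 and -2.42 in the Mex3a-high gate, and by -0.15 to 0.20 in the Mex3a-negative gate. Their adjusted p-values ran from 0.00712 for Lrp11 to 0.0102 for Serpina1c. Bmx encodes a Tec family kinase, Camk2b a calcium-dependent kinase and Fyb an adaptor protein. Among the largest single-gate changes, Pygl, of glycogen phosphorylase, was at -3.93 and 0.11 (F test adjusted p = 0.0173), Basp1 at -3.78 and 0.12 (0.0542) and Fabp5, of a fatty acid binding protein, at -3.91 and -0.67 (0.999). Fabp5 rested in part on the array that stood apart, without which its change in the Mex3a-high gate was -2.48. Bmp2, a ligand gene of the BMP pathway, was the called one of 20 measured BMP genes (-1.06 ± 0.15, adjusted p = 0.00759): its groups did not overlap (4.73 to 5.05 against 5.29 to 6.93), with -1.80, -0.55 and -0.83 in the gates and an F test adjusted p of 0.999.

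Outside this pattern 4 genes were driven by 1 gate. Clu, of the secreted chaperone clusterin, was higher in all gates and most in the Mex3a-high one (1.54, 0.65 and 0.62; over all gates 0.94 ± 0.15, adjusted p = 0.0142), without overlap of the groups (5.79 to 7.19 against 5.11 to 5.71). Its Mex3a-high change was 1.26 without the array that stood apart and 1.13 within strip 2. Chgb, a granin gene, fell most in the Mex3a-low gate (-1.54, -4.29 and -1.20, each ± 0.81), and was called over all gates at an adjusted p of 0.0495 (0.0503 with the replicate as a block). In Itln1, a Paneth cell lectin gene, the 3 gates were 0.04, 0.63 and 1.79 (each ± 0.18; F test adjusted p = 0.0636). The Mex3a-negative Lgr5-low arrays were the low ones, at 9.18 and 9.52, against 11.10 to 12.51 on the 6 Lgr5-high arrays. Ripor2 rose most in the Mex3a-negative gate (1.47 ± 0.26). The F test called none of these 4 (adjusted p = 0.999 for Clu, 0.999 for Chgb and 0.999 for Ripor2). Probe sets differed in size for Clu and Ripor2, with mean changes over all gates from 0.16 to 0.94 and from 0.09 to 0.79. Of 8 measured Paneth cell genes Itln1 alone was called (median 0.36, with 0.09, 0.42 and 0.45 in the gates). Mmp7, of a defensin-activating protease, was at 0.45 ± 0.22 and lysozyme Lyz1 at 0.19 ± 0.13 (adjusted p = 0.458 and 0.532). In the gates Mmp7 changed by -0.11, 0.58 and 0.88 and Lyz1 by 0.33, 0.22 and 0.01. Members of the list ranged from -0.64 to 3.76 in the Mex3a-negative gate, where none was called.

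**Figure D5:**
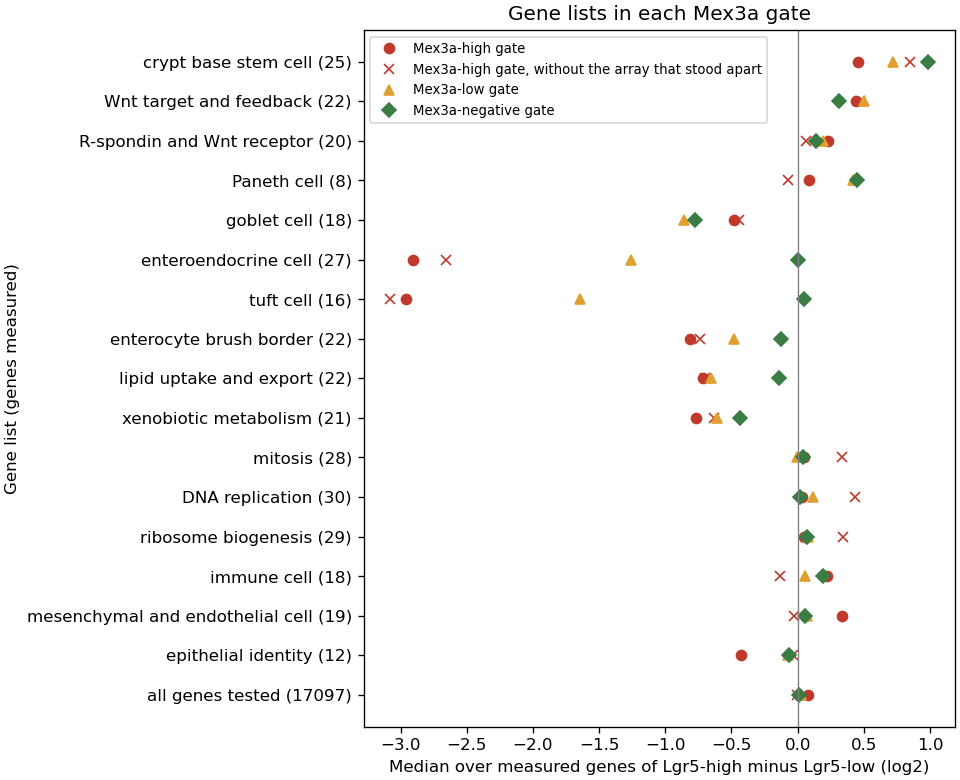
Median change between the Lgr5 gates (log2) over the measured genes of each list, by Mex3a gate, with the Mex3a-high gate also without the array that stood apart (cross). Goblet cell genes lie below 0 in all 3 gates, enteroendocrine and tuft cell genes below -1 in the Mex3a-high and Mex3a-low gates and near 0 in the Mex3a-negative gate, and stem cell genes above 0 in all 3.

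Genes of proliferation passed the test in neither direction. Limma called 0 of 28 mitosis genes (1 at an unadjusted p under 0.05; median 0.02), 0 of 30 DNA replication genes (0; 0.05) and 0 of 29 ribosome biogenesis genes (1; 0.07). Mki67, the proliferation marker gene, was at 10.72 to 11.27 against 10.47 to 10.99, a change of 0.18 ± 0.11 (adjusted p = 0.500). Without the array that stood apart the medians of these lists were 0.13, 0.19 and 0.17, and again limma called 0. In the Mex3a-high gate alone they were 0.33, 0.43 and 0.34 without that array, against 0.05, 0.03 and 0.05 with it. Mitochondrial respiration genes had 0 of 29 called (10 at an unadjusted p under 0.05), a median of -0.19 and 0 positive changes, with 4 lower without that array.

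Enterocyte lists had negative medians and few calls. Of 22 measured brush border genes 1 was lower, Cdhr2, of a protocadherin of the brush border (-0.73 ± 0.14, adjusted p = 0.0401), and the median was -0.51 with 1 positive. Of 22 lipid uptake and export genes 1 was lower, Npc1l1, of the sterol transporter of enterocytes (-1.20 ± 0.21, adjusted p = 0.0258; 6.04 to 7.38 against 7.49 to 8.81), and the median was -0.56. The xenobiotic list had a median of -0.71 with 0 of 21 called by limma (9 at an unadjusted p under 0.05). Alpi, of intestinal alkaline phosphatase, and the apolipoprotein gene Apoa1 varied widely, at 6.51 to 9.54 against 8.94 to 11.30 and 8.59 to 11.95 against 10.70 to 12.40, and their changes of -1.30 ± 0.41 and -0.95 ± 0.32 were not called (adjusted p = 0.232 and 0.263). Of 18 Notch pathway and 15 EGF family genes limma called 0 (5 and 1 at an unadjusted p under 0.05).

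Marker lists of non-epithelial cells had their highest mean level on the array that stood apart. The mean level of 18 immune cell genes was 5.58 to 6.27 on Lgr5-high and 5.60 to 5.97 on Lgr5-low arrays, and that of 19 mesenchymal and endothelial genes 5.36 to 6.19 against 5.33 to 5.56. That array was the highest of the 12 in both, as in the collagen gene Col1a1 (7.32 against 6.36 to 6.56 on the other arrays). Its values were also the least spread, as given above. The brightly expressed mitochondrial respiration list had its lowest mean level there (10.75). Red blood cell genes (7.28) and the bright Paneth cell list (10.72) had their highest. The cause of these levels was not tested. Limma called 1 immune cell gene, Ptprc, and 0 mesenchymal and endothelial genes (2 at an unadjusted p under 0.05). The T cell gene Cd3e lay between 4.74 and 5.50 on Lgr5-high and 4.87 and 5.31 on Lgr5-low arrays (0.09 ± 0.10, adjusted p = 0.633). Ptprc, of the leukocyte antigen CD45, averaged 5.83 in Mex3a-high Lgr5-low cells and 4.00 to 4.29 in the other 5 populations, and was driven by the Mex3a-high gate (-1.64 ± 0.19). Vim, of the filament protein vimentin, had its highest mean in the same population (8.84) and a Mex3a-high change of -2.36 ± 0.43 (-2.82 within strip 2). Over all gates Vim had an adjusted p of 0.0749, and of 0.0487 with the replicate as a block. Ptprc and Vim move with the enteroendocrine and tuft cell genes above, and their part in those results was not tested.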

How the data were processed

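The deposited values are log2 RMA expression per probe set from 12 one-colour Affymetrix arrays, normalized by the authors, per the submitters' processing notes; the version is not given in the sources used here. Array medians ran from 5.83 to 6.04. Of 45141 probe sets, 29449 are in GEO's probe table, 28898 with 1 gene and 551 with several, and 15692 are unnamed here. Of the single-gene ones 28689 matched RefSeq by gene identifier. Each gene was read from its single-gene probe set of highest average level, giving 17097 genes (7180 had several), with no filter on dim ones. Of the 63 genes that moved alike 31 had several probe sets, and in 28 of these all had 1 sign. Sizes could still differ between probe sets of 1 sign, as in Gas6 (0.12 to 0.95) and Dock8 (-1.01 to -0.27). No column of the table lacked a sample.

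Means of the 6 populations were fitted with limma 3.58.1 (R 4.3.3; 6 residual and 3.44 prior degrees of freedom, with trend). Contrasts were Lgr5-high minus Lgr5-low over all gates and per gate, and an F test of the gates' difference, each with Benjamini-Hochberg adjustment over 17097 genes at 0.05. The script was tested on simulated data. The members, lists and rules were chosen with earlier results of these data known, and the class of 2 gates, the fits with 2 blocks, with the odd array out and strip, and on 2 gates were added after seeing the data. Other alternatives were a replicate or strip block, quantile normalization, a level filter, another probe set, array weights and leaving out each array.

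The rule for named genes took Lgr5, Mex3a, Ascl2, Olfm4, Smoc2 and Axin2. It took the 15 largest rises and 15 largest falls among genes that moved alike, and per gate and direction the 5 largest 1-gate changes. It also took the 10 smallest F test p-values and up to 5 called genes per list and direction. Outside it, and chosen after their values were seen, are Znrf3, Fzd2, Rgmb, Cdk6, Msi1, Utrn, Gas6, Fgfr4, Fgf1, Htr4, Esr1, Sfrp5, Tm6sf2, Ihh, E2f2, Spdef, Atoh1, Manf, Slc35b1, Isl1, Vim, Pou2f3, Rgs13, Fut2, Avil, Vwa5b2, Trpm5, Chga, Mki67, Epcam, Cd3e, Col1a1, Lyz1, Mmp7, Alpi and Apoa1.

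The labels give the replicate numbers MR793 and MR820. Deviations of same-numbered arrays from their population means correlated above 0.1 in 14 of 15 pairs of populations (-0.12 to 0.57, median 0.38; lowest 0.37 without Mex3a-high Lgr5-high cells). With 2 replicates the 2 deviations of a population are mirror images, so these correlations are not independent.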

Additional observations from a re-analysis of the deposited data

Results flagged for a closer look

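Among 208 sets of 6 arrays (1 gene in 1 Lgr5 group) examined for an array far from the others by Dixon's test, 23 were marked, where chance marks about 1 in 20. Of these, 14 fell on 1 array, that of Mex3a-high Lgr5-high cells in MR793. On it Lgr5 was at 9.0, Rgmb at 9.70, Msi1 at 11.03, Ptpro at 6.39, Slc35b1 at 9.95, Fabp5 at 5.37, Basp1 at 4.98 and Epcam at 11.97, and Smoc2 at 11.38, Utrn at 11.93, Ihh at 6.82, E2f2 at 8.22, Vim at 7.08 and Col1a1 at 7.32. The Mex3a-negative Lgr5-low array of MR793 stood apart in Tm6sf2 (10.62), Slc35b1 (11.50) and Npc1l1 (8.81). That of Mex3a-high Lgr5-high cells in MR820 did so in Kctd12 (6.64), Cpe (5.23), Tac1 (5.85) and Siglecf (5.87). Bmp2 was at 4.73 on the Mex3a-negative Lgr5-high array of MR793, and Cdkn1a at 7.95 on the Mex3a-low Lgr5-high array of MR820.

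In 20 of the named genes the Lgr5 change differed between the Mex3a gates (limma's F test). This count follows largely from the choice of genes. Some were named for having the smallest F test p-values, and others after their values were seen. The adjusted p was 0.00712 for Lrp11, Strip2, Bmx and Neurod1, 0.00808 for Nebl, 0.00841 for Tmem229a, 0.00887 for Tspan6, Camk2b and Fyb, and 0.0102 for Serpina1c. It was 0.0173 for Pygl and Cdkn1c, 0.0240 for Fut2, 0.0257 for Rgs13, 0.0267 for Isl1 and Dclk1, 0.0302 for Alox5ap, 0.0324 for Vwa5b2, 0.0455 for Avil and 0.0484 for Gip. In all 20 the change was more negative in the Mex3a-high than in the Mex3a-negative gate. Over all 17097 genes the F test called 52 (0.304%), and 51 of these had a fall in the Mex3a-high gate as their largest change.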

How the results depend on the processing

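Counts of called genes are by limma, in the order all gates, Mex3a-high, Mex3a-low and Mex3a-negative gate, F test, alike and driven by 1 gate, where they moved by over 1.5 times. With the replicate as a block 118 genes moved alike and no other count moved so far (all gates gave 348); of the named genes it changed the call of Fzd2, Rgmb, Cdk6, Spdef, Vim and Chgb alone. With strip as a block they were 0 (456 at an unadjusted p under 0.05), 145 and 1, then 106 for the F test and 0 alike. Array weights gave 44, 0 (463 at an unadjusted p under 0.05), 90, 32, 5, 11 and 26, with a weight of 0.0764 on both Mex3a-high Lgr5-high arrays and at least 1.37 on the others. Genes above the median level gave 149 over all gates, 110 in the Mex3a-high and 1 in the Mex3a-negative gate, 0 by the F test (221 at an unadjusted p under 0.05) and 75 driven by 1 gate, with fewer genes tested. Quantile normalization gave 4 in the Mex3a-low and 2 in the Mex3a-negative gate. Of the fits added after seeing the data, both blocks gave 0 (419), 105 and 0 (321), then 25, 0 and 88. Strip with the odd array out gave 2 over all gates, 1 in the Mex3a-low gate, 145 by the F test and 0 alike, and the Mex3a-low and Mex3a-negative gates alone gave 123. The cause of these shifts was not tested. Leaving out 1 array gave 106 to 9323, 96 to 10870, 0 to 28, 0 to 10, 0 to 7546, 19 to 351 and 82 to 3485. No named gene called over all gates with the 12 arrays changed sign in these fits; Mki67, Col1a1 and Cd3e, not called there, did in some. Replication limits these results: 2 arrays per population and 1 matched pair within a strip.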
